A study of Mus musculus with 3 samples.

Results

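MiR-9 is a microRNA (miRNA) of the nervous system whose hairpin gives a pair of mature forms, mmu-miR-9-5p from its 5′ side and mmu-miR-9-3p from its 3′ side. They were chosen by name and are 2 of the 1915 mature miRNAs listed in the study, which sequenced the miRNAs of mouse retina. The ages were P1, P7 and P17, in days after birth. Each age is 1 library of untreated C57BL/6 mice (C57BL/6J in the study's methods), made from the pooled retinas of 5 eyes. There are therefore no replicate libraries, no test between ages was possible, and the intervals given cover only the error of counting. Reads copied by PCR and lacking molecular identifiers are not separate molecules, so even that error may be wider than the intervals show.

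A miRNA loads into an Argonaute protein and pairs with messenger RNAs mainly through its seed, bases 2 to 8, which lowers their translation and stability. MiR-9-5p is known to repress regulators of neural progenitors such as Hes1, Nr2e1 and the neuronal gene repressor Rest, and miR-9-3p is known to repress Rcor1, a partner of Rest, and Actl6a, a subunit of the progenitor form of the BAF chromatin remodelling complex. In the developing retina miR-9 is known, together with let-7 and miR-125, for its part in moving progenitors from early to late cell fates. The arms of a hairpin are cut from the same precursor, and one of them is usually kept more often than the other.

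The mature sequences from RefSeq (GRCm38.p6) are shown because the arms carry different seeds, which are in capitals, and so address different messenger RNAs.
miR-9-5p: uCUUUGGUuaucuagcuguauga
miR-9-3p: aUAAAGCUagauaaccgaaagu
Among the 1679 mature miRNA names with a RefSeq sequence, no other name held either seed, so neither arm shares its seed with another miRNA there. MiR-9-5p has 23 bases and begins with U, whereas miR-9-3p has 22 and begins with A. Bases 6 to 17 of miR-9-5p pair, antiparallel, with bases 5 to 16 of miR-9-3p, a run of 12 Watson-Crick pairs and the longest between them.

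The mouse genome holds 3 miR-9 genes, and their hairpins are shown with both mature arms in capitals, because the arms are identical in all 3 and only the loops and flanks differ.
Mir9-1: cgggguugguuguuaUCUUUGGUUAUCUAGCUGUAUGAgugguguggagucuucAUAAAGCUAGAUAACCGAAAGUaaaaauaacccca
Mir9-2: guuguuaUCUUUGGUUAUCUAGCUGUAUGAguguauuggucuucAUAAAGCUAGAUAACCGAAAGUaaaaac
Mir9-3: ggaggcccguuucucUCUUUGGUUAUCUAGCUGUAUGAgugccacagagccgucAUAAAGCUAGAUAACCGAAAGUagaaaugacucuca
Mir9-1 (ENSMUSG00000106493) lies at chr3:88215598-88215686 on the plus strand (GRCm38, which is the mm10 build named in the study), within an intron of the long non-coding RNA gene Gm3764. Mir9-2 (ENSMUSG00000065424) lies at chr13:83738814-83738885 on the plus strand, inside exon 4 of 1 of the 3 transcripts that span it, of the long non-coding RNA gene C130071C03Rik. A further annotated exon of that gene overlaps the hairpin in part. Mir9-3 (ENSMUSG00000093238) lies at chr7:79505264-79505353 on the plus strand, within an intron of the long non-coding RNA gene Mir9-3hg. Reads of a mature arm do not show which of the 3 loci they came from, so every value below is a sum over them. RefSeq also holds 1 or 2 antisense miR-9b arms at each of these loci, which were not analysed here. The counting rule was not given in the sources used here, so whether antisense reads were counted with the sense arms cannot be told.

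The libraries held 11426320 to 12759995 miRNA reads, and levels are in RPM, the reads per 1000000 miRNA reads of the same library. An RPM value is a share, so that a larger share of one miRNA leaves less to the others. The sensory cluster of miR-182, miR-96 and miR-183, known from photoreceptors, took a share of 7.85% in the P1 library against 30.6% (P7) and 30.2% (P17). The P1 library stood apart from the others, with a TMM factor of 1.60 against 0.808 at P7 and 0.774 at P17 and with 1169 miRNAs detected against 1047 and 1045. Summed markers of other cells were low for leukocytes (12.9 to 17.5 RPM), red blood cells (12.9 to 46.6 RPM) and muscle (89.97 to 240.1 RPM). The same held for lens and cornea (103 to 570 RPM) and liver (2.27 to 5.78 RPM). None of these markers was at 0. The leukocyte marker miR-223-3p, at 0.18 to 0.60 RPM, had a mean below 1 RPM and is not in the leukocyte sum. For pigment epithelium and ciliary body, miR-204-5p had 14662, 6967 and 9019 RPM by age and miR-211-5p had 549.7, 258.6 and 5315 RPM, a log2 change of 4.36 between P7 and P17. The endothelial sum went from 1261 RPM at P1 to 8530.4 RPM at P17 and the mural sum from 195.0 to 1492 RPM. Their part in the results was not tested. In whole retina, fewer cells of a type and less RNA per cell cannot be told apart.

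MiR-9-5p was among the 4 most abundant miRNAs at every age. The P1 library gave 1648346 reads of it, or 144259 RPM (95% Wilson interval 144055 to 144463). The P7 library gave 1604724 reads, or 125762 RPM (125580 to 125944). The P17 library gave 862942 reads, or 74010.5 RPM (73860.4 to 74160.9). On the RPM scale the level was thus highest at P1 and lowest at P17 and the intervals did not overlap. Scalings that centre the typical miRNA put P7 highest and left P1 and P17 nearly level, with a log2 change of 0.0061 to 0.084 from P1 to P17. Its shares of all miRNA reads, in order of age, were 14.4%, 12.6% and 7.40%. Of the reads that were not of the sensory cluster it took 15.7%, 18.1% and 10.6%, so that on this base P7 was highest and P17 lowest.

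**Figure D1:**
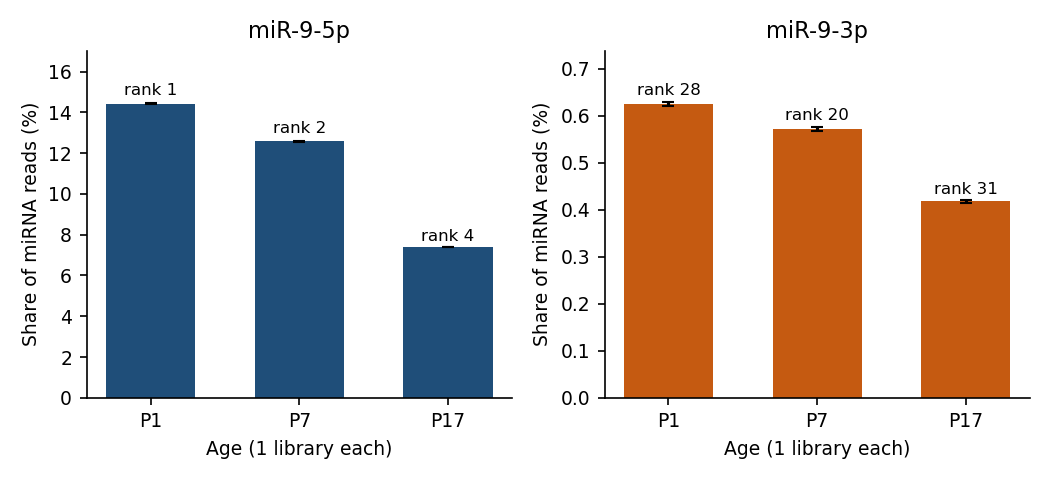
Share of miRNA reads (%) taken by miR-9-5p (left) and miR-9-3p (right) in the P1, P7 and P17 libraries, with 95% Wilson intervals as error bars and the rank by RPM above each bar. MiR-9-5p went from 14.4% to 7.40% and miR-9-3p from 0.626% to 0.418%, on vertical axes of different range. With median-of-ratios or TMM scaling miR-9-3p was instead higher at P17 than at P1 (log2 change 0.39 to 0.47). With these scalings miR-9-5p was nearly level (0.0061 to 0.084).

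In the order of abundance miR-9-5p went from rank 1 (P1) to rank 2 (P7) and rank 4 (P17). At P1 the next miRNA, miR-26a-5p, had 0.604 times its reads (exact 95% interval 0.602 to 0.605). At P7 it was passed by miR-182-5p of the sensory cluster, with 1.44 times its reads. At P17 miR-183-5p and miR-181a-5p stood above it as well, the latter with 1.29 times its reads, and let-7f-5p followed with 0.835 times. No neighbour in this order lay within counting error of miR-9-5p.

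MiR-9-3p was the lesser arm at every age and was still an abundant miRNA. In the P1 library 71533 reads made 6260.4 RPM (95% Wilson interval 6215 to 6306). In the P7 library 73082 reads made 5727 RPM (5686 to 5769). In the P17 library 48781 reads made 4184 RPM (4147 to 4221). On the RPM scale its order over the ages was that of miR-9-5p, without overlap of the intervals. With the centring scalings P7 was highest here too, and P1 was lowest. It held places 28, 20 and 31 by age among the 1915 miRNAs.

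Several neighbours of miR-9-3p lay within counting error of it. At P1 miR-127-3p had 1.01 times its reads (exact 95% interval 0.998 to 1.02), at P7 miR-21a-5p had 0.996 times (0.986 to 1.01), and at P17 miR-191-5p had 1.00 times (0.989 to 1.01). A level like that of miR-21a-5p and miR-191-5p, which are leading arms of their own hairpins in many tissues, was thus reached by the lesser arm of miR-9.

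Hairpins were compared where both arms are listed under the same name apart from 5p or 3p, 749 in all. Arms numbered by locus, such as let-7a-1-3p or miR-181a-1-3p, were not paired and are not among them. Among the lesser arms of these 749, miR-9-3p was the most abundant in each of the 3 libraries. At P1 it stood 4.16-fold above the next lesser arm, miR-30e-3p with 1504 RPM. At P7 and P17 the next was miR-124-5p, with 1480 RPM and 1416 RPM, so that miR-9-3p stood 3.87-fold and 2.95-fold above it. Its reads also outnumbered the leading arm of 730.0 to 738 of the 749 hairpins, depending on the age. No abundance filter was set on these 749, and only 190 of them had both arms at a mean of at least 1 RPM and reads of both arms at every age. The margin over the next lesser arm, the only margin computed, was smallest at P17. Both arms together took 15.1%, 13.1% and 7.82% of all reads in order of age.

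The ratio of the arms compares reads within a library and needs no scaling. At P1 miR-9-5p outnumbered miR-9-3p 23.0-fold (exact 95% interval 22.9 to 23.2), against 22.0-fold in the P7 library (21.8 to 22.1) and 17.7-fold in the P17 library (17.5 to 17.9). Put as a share of the reads of the hairpin, miR-9-3p made up 4.16%, 4.36% and 5.35% by age (95% Wilson intervals 4.13 to 4.19, 4.33 to 4.39 and 5.30 to 5.40). The 5p arm led at every age, and the balance shifted towards the 3p arm, mostly after P7. The log2 ratio changed by -0.07 between P1 and P7 (95% counting interval -0.08 to -0.05), by -0.31 between P7 and P17 (-0.33 to -0.29) and by -0.38 over the whole span (-0.40 to -0.36).

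**Figure D2:**
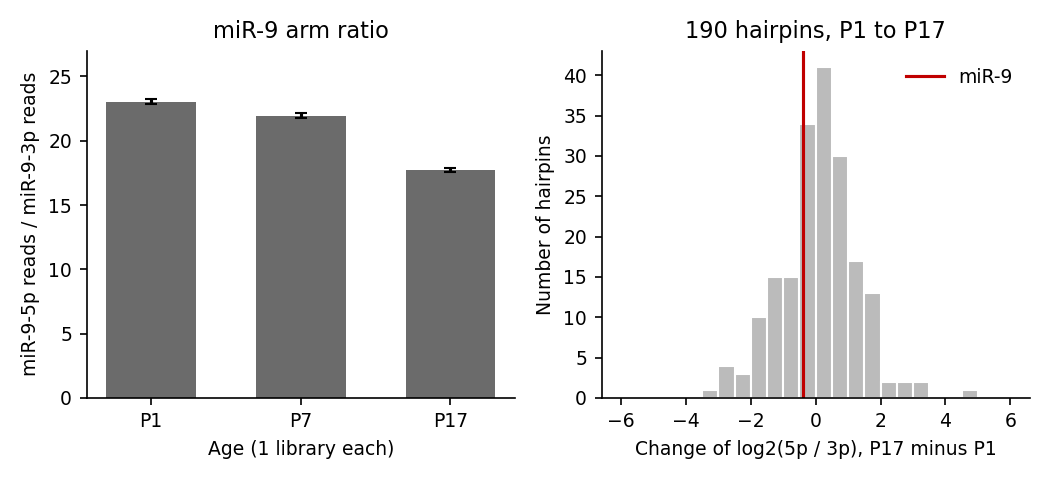
Left, reads of miR-9-5p divided by reads of miR-9-3p in each library, with exact 95% intervals, falling from 23.0 at P1 to 17.7 at P17. Right, the change of the log2 arm ratio from P1 to P17 for 190 hairpins as a histogram, with miR-9 at -0.38 (red line) inside the middle 50% of hairpins, -0.52 to 0.86.

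Set beside other hairpins, the shift was beyond counting error but modest. Of the 749 hairpins, 190 had both arms at a mean of at least 1 RPM and reads of both arms at every age. Among these the median change from P1 to P17 was 0.16, and the middle 90% lay between -1.90 and 1.77. Of these hairpins 58 had a more negative change than miR-9, and 50 had a smaller absolute change. An arm ratio changed over 2-fold in 13.7% of the hairpins between P1 and P7, in 23.2% between P7 and P17 and in 36.8% over the whole span, and that of miR-9 in none of the 3 comparisons. Its 5p to 3p ratio was not extreme either, since 44 to 49 of the 190 hairpins leaned more to the 5p side, depending on the age. The 5p arm led in 105 to 107 of the 190. The ratio of miR-9 was above the median fold between the arms of a hairpin, which was 10.8, 10.9 and 10.2 by age.

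The direction of change of the arms between ages was next compared with all 648 miRNAs at a mean of at least 1 RPM. On the log2(RPM + 1) scale miR-9-5p changed by -0.20 from P1 to P7, by -0.76 from P7 to P17 and by -0.96 from P1 to P17. MiR-9-3p changed by -0.13, -0.45 and -0.58 over the same intervals. Without a pseudocount the exact 95% intervals from P1 to P17 were -0.97 to -0.96 for miR-9-5p and -0.60 to -0.56 for miR-9-3p. In RPM miR-9-5p was thus 1.95-fold lower at P17 than at P1 and miR-9-3p 1.496-fold lower. Both fell short of the fold change above 2 that the study required, along with an adjusted P value. With median-of-ratios and TMM scaling the direction turned for miR-9-3p, and the change of miR-9-5p was close to none (0.0061 to 0.084).

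Neither arm passed 2-fold in any of the 3 comparisons with RPM. In the P1 to P7 comparison 44.8% of the 648 lay more than 2-fold lower at the later age and 3.09% higher. The shares were 11.6% lower and 14.0% higher for P7 to P17, and 46.8% lower and 10.5% higher for P1 to P17. The median change of the 648 was -0.87, -0.05 and -0.91, so the comparisons that involve P1 are shifted as a whole. Relative to that median, miR-9-5p changed by 0.67 from P1 to P7, by -0.71 from P7 to P17 and by -0.05 from P1 to P17. MiR-9-3p changed by 0.74, -0.40 and 0.33 relative to it. Against the typical miRNA, then, both arms were higher at P7 than at P1 and lower at P17 than at P7, and from P1 to P17 miR-9-5p changed about as the typical miRNA did (-0.05 to 0.08 over the 7 scalings tried, RPM among them). That comparison with the median depended on the pseudocount, which moves the low miRNAs: with 5 RPM miR-9-5p lay at -0.36 and miR-9-3p at 0.02 relative to the median from P1 to P17, and at 0.42 and 0.49 from P1 to P7.

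The sign of the changes that involve P1 was not the same under all scalings. Median-of-ratios size factors put the change of the typical miRNA near 0, and with them miR-9-5p changed by 0.76 from P1 to P7 and by 0.08 from P1 to P17, and miR-9-3p by 0.83 and 0.46. That scaling, which centres the miRNAs by construction, also narrowed the balance of all 648, with 73 past 2-fold downwards and 62 upwards at P7 against P1 (290 and 20 in RPM), and 155 and 165 at P17 against P1 (303 and 68 in RPM). The step from P7 to P17 kept its direction under each of the 7 scalings, between -1.01 and -0.68 for miR-9-5p and between -0.70 and -0.37 for miR-9-3p. The lower level of both arms at P17 than at P7 was therefore the change that held under all 7 scalings tried. The TMM factors of these libraries were close, at 0.808 for P7 and 0.774 for P17, so RPM and TMM scaling could differ little on this step. Its size did depend on the scaling. The total without the 10 miRNAs highest in each library moved it furthest from RPM, to -1.01 for miR-9-5p and -0.70 for miR-9-3p. Ratios to single miRNAs, given below, did not all go the same way.

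**Figure D3:**
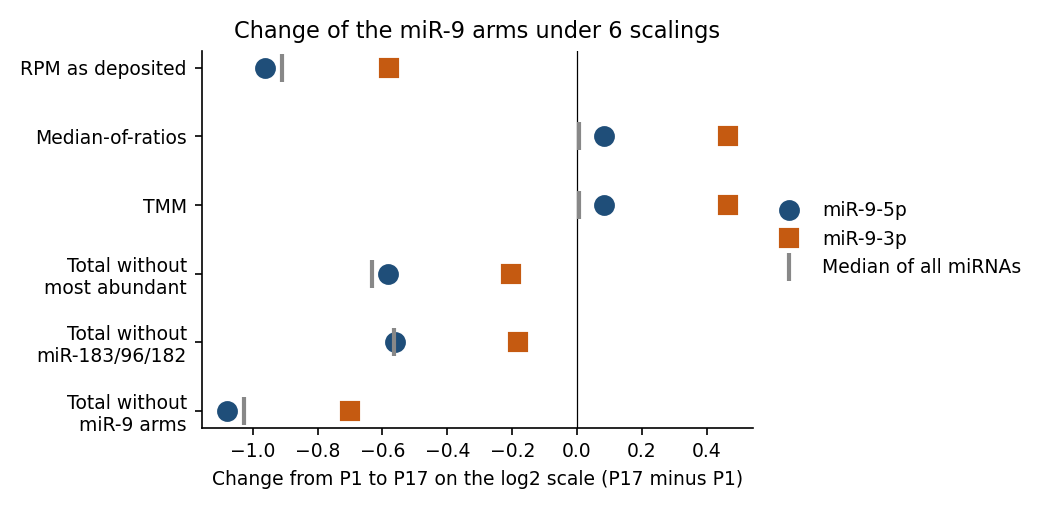
Change from P1 to P17 (log2 scale, P17 minus P1) of miR-9-5p (circles), miR-9-3p (squares) and the median of 648 miRNAs (bars) under RPM and 5 other scalings. Both arms lie below 0 with RPM and the reduced totals. With median-of-ratios and TMM factors miR-9-3p lies above 0 and miR-9-5p only just above it (0.083 and 0.084). MiR-9-5p stays close to the median throughout while miR-9-3p lies above the median.

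Reads of miR-9-5p were also compared with those of other miRNAs in the same library, which needs no scaling. The let-7 family and miR-98, known timers of development, were summed over 9 guide strands, which together gave 2126035, 1801452 and 1797696 reads by age. MiR-9-5p had 0.775 times as many reads as these in the P1 library, 0.891 times in the P7 library and 0.480 times in the P17 library. Against miR-125a-5p and miR-125b-5p together, it had 23.4, 29.4 and 10.3 times the reads. MiR-9-3p had 1.02 times the reads of the miR-125 pair in the P1 library, 1.34 times in the P7 library and 0.583 times in the P17 library. In relation to the miR-125 pair both arms were thus highest at P7 and lowest at P17, and so was miR-9-5p in relation to the let-7 sum. Single strands of that sum differed. On the log2(RPM + 1) scale let-7i-5p changed by -2.24 and miR-98-5p by -1.17 from P1 to P17, further down than miR-9-5p (-0.96). Against these strands miR-9-5p was therefore higher at P17 than at P1, and against every other strand of the sum it was lower.

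The 4 most abundant neuron-enriched miRNAs by mean RPM, which were chosen as partners after their values were seen, gave ratios that differed in direction. Among them miR-124-3p is known to repress Actl6a as miR-9-3p does. At P1 miR-9-5p had 93.4 times the reads of miR-124-3p (exact 95% interval 92.1 to 94.8), against 61.2 times in the P7 library (60.5 to 62.0) and 5.79 times in the P17 library (5.76 to 5.82). MiR-9-3p had 4.05 times its reads at P1 and 2.79 times at P7, but 0.327 times at P17, so the order of these miRNAs was reversed. Against miR-129-5p the ratio of miR-9-5p went likewise, from 115 to 55.8 and 7.09. Against miR-218-5p it went from 7.55 to 23.5 and 14.1, and against miR-128-3p from 15.4 to 30.4 and 18.2. In relation to these last miRNAs miR-9-5p was thus highest at P7 and higher at P17 than at P1. Against miR-182-5p the ratio of miR-9-5p went from 3.49 to 0.694 and 0.522. Against miR-92a-3p of the miR-17-92 cluster, known from dividing cells, it went the other way, from 9.31 to 23.8 and 47.7, and that of miR-9-3p went from 0.404 to 1.09 and 2.69. The ratio of miR-9-5p was thus lowest at P17 against miR-124-3p, miR-129-5p and miR-182-5p and highest at P17 against miR-92a-3p. With miR-26a-5p, the next miRNA at P1, the ratio stayed between 1.66 and 1.89.

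**Figure D4:**
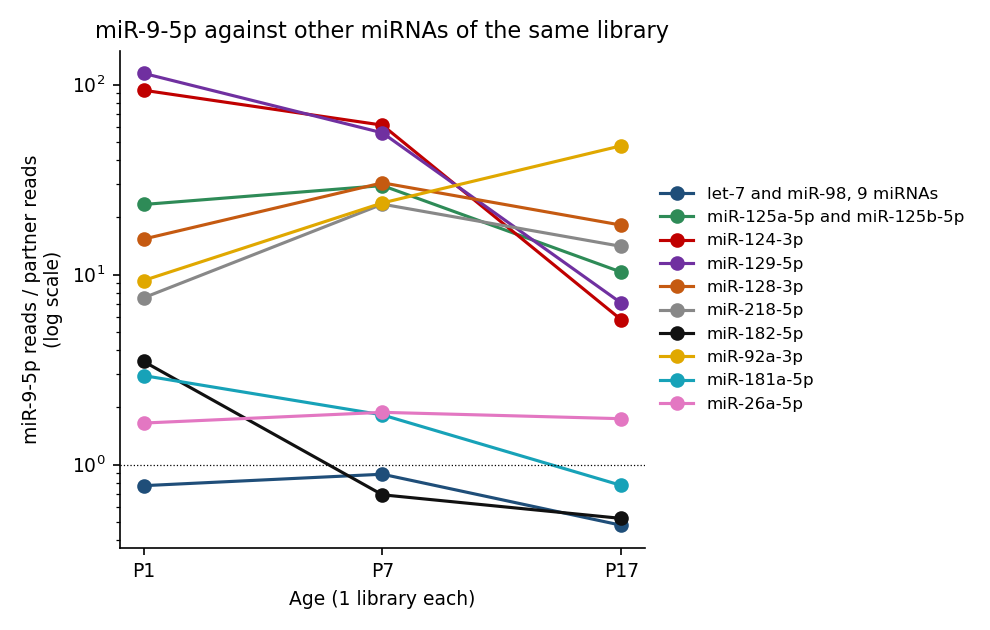
Reads of miR-9-5p divided by reads of other miRNAs of the same library (log axis) at P1, P7 and P17, with each line a partner and the dotted line at equal reads. From P1 to P17 the ratio goes from 93.4 to 5.79 against miR-124-3p, from 7.55 to 14.1 against miR-218-5p and from 9.31 to 47.7 against miR-92a-3p, while that to miR-26a-5p stays between 1.66 and 1.89.

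The lists around miR-9 were then counted from P1 to P17, where 10.5% of all 648 miRNAs were over 2-fold higher and 46.8% over 2-fold lower in RPM. Of the 11 let-7, miR-98 and miR-125 strands, all past the abundance filter, 2 were over 2-fold higher (let-7b-5p by 1.33 and let-7c-5p by 1.05 on the log2 scale) and 2 over 2-fold lower (let-7i-5p by -2.24 and miR-98-5p by -1.17). Their median change was -0.20, against -0.91 for all 648. The most abundant of them by mean RPM, let-7f-5p, went from 40422 to 44285 and 61765 RPM over the ages, and the next, let-7i-5p, from 73979.6 to 34355 and 15611 RPM, so that miR-9-5p and let-7i-5p were lower in RPM at each later age and let-7f-5p higher. With median-of-ratios factors 4 of the 11 were over 2-fold higher and 1 over 2-fold lower, against 165 and 155 of all 648.

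Of 10 neuron-enriched strands, 4 were over 2-fold higher at P17 and 3 over 2-fold lower, with a median of 0.36 against -0.91 for all 648, where the same shares were 10.5% and 46.8%. The most abundant by mean RPM were miR-218-5p, which went from 19098 RPM at P1 to 5253 RPM at P17, miR-128-3p, from 9375 to 4060.5 RPM, miR-124-3p, from 1544 to 12777 RPM, and miR-129-5p, from 1258 to 10438 RPM. Among miRNAs of genes known to be held down by Rest, 3 of 5 were over 2-fold higher at P17, namely miR-124-3p (3.05), miR-132-3p (2.13) and miR-212-3p (1.67), and the other members of that list are the miR-9 arms themselves. These 3 are also among the 4 neuron-enriched strands counted as higher, so the lists are not separate results. MiR-212-3p had only 10, 17 and 58 reads by age. The 6 guide strands of the miR-17-92 cluster were all over 2-fold lower, as were 46.8% of all 648, with a median of -4.42 against -0.91. MiR-9-5p therefore lay between these groups, below the other miRNAs of the Rest list and above the miR-17-92 strands. With median-of-ratios factors 7 of the 10 neuron-enriched strands were over 2-fold higher and none over 2-fold lower, and 4 of the 6 miR-17-92 strands over 2-fold lower, against 165 higher and 155 lower of all 648.

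**Figure D5:**
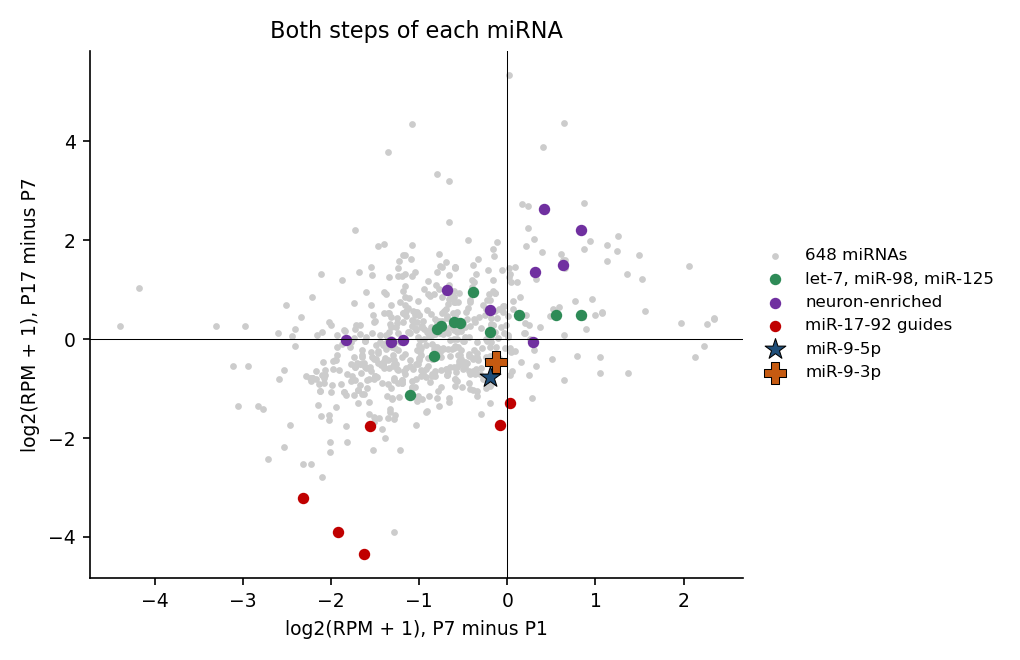
Change of log2(RPM + 1) at P7 against P1 (horizontal) and at P17 against P7 (vertical) for 648 miRNAs (grey), with miR-9-5p (star), miR-9-3p (cross) and 3 lists in colour. MiR-9-5p lies at -0.20 and -0.76 and miR-9-3p at -0.13 and -0.45, both left of 0 on the horizontal axis with RPM and right of it with median-of-ratios or TMM scaling.

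The miRNAs with the most similar course were looked for among the other 430 with a mean of at least 10 RPM, by the Euclidean distance between their pairs of steps on the log2(RPM + 1) scale. Nearest to miR-9-5p were miR-677-5p (distance 0.13), miR-219a-5p (0.14), miR-361-3p (0.20), miR-26a-5p (0.22) and miR-15a-5p (0.23). Of these only miR-26a-5p was of similar abundance, with 87131, 66696 and 42402 RPM by age. Nearest to miR-9-3p were miR-199a-5p (0.05), miR-3473b (0.14), miR-16-5p (0.20), miR-361-3p (0.22) and miR-335-5p (0.24). The arms themselves lay 0.32 apart, so that miR-9-3p held place 9 in the order around miR-9-5p, and miR-9-5p place 13 in that around miR-9-3p. The likeness rests on 3 libraries and is a description only.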

How the data were processed

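MiRNAs of mouse retina were sequenced by the study at P1, P7 and P17, with 1 library per age, grouped by the labels. Before alignment to mm10 the authors trimmed adaptor sequence and discarded reads of low quality; the study's methods name HISAT2, whereas the submitters' processing notes name BWA and FastQC. Annotation and counting rule are not given in the sources used here. The authors deposited a raw read count for each of 1915 mature miRNAs and an RPM value, which equals the count per 1000000 summed miRNA counts to within 0.0192 RPM. The libraries held 11426320 (P1), 12759995 (P7) and 11659722 (P17) reads, so 1 read is worth 0.0784 to 0.0875 RPM and the floor of 3 counts is 0.235 to 0.263 RPM.

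From the deposited RPM, log2(RPM + 1) was computed, and the 648 miRNAs whose mean reached 1 RPM formed the background. With 1 library per age no model could be fitted, so intervals (Wilson for shares, exact binomial for ratios of reads, a normal approximation for the change of the arm ratio) cover counting error only. A miRNA was counted as changed past 2-fold. Arms were paired into hairpins only where their names differ in 5p or 3p alone, so arms numbered by locus are left out of all hairpin counts. Named miRNAs were the members, their neighbours in rank, the 5 nearest by pattern, the 5 hairpins nearest by arm ratio, the most abundant or over 2-fold changed members of fixed lists, and tissue markers; the next lesser arms, and the miRNAs used for ratios within a library, were picked after their values were seen. Members and lists were chosen with earlier results of these data known. Sequences, genes and positions came from RefSeq (GRCm38.p6) and GENCODE annotation; 1623 of the 1915 names, and 540.0 of the 648, had a RefSeq sequence. Alternatives were other pseudocounts, filters, fold criteria and scalings (median-of-ratios factors from 644 miRNAs with reads at every age, TMM factors, reduced totals). The steps were tested on simulated counts. For the RPM steps the changed miRNAs in the simulation were not among the most abundant. A shift of the totals, such as that of the sensory cluster, was therefore not simulated for them. TMM factors came from edgeR 4.0.16 in R 4.3.3. All else was run in Python 3.11.15 with scipy 1.17.1 for intervals, pandas 2.3.3 and numpy 2.4.6 for tables, and matplotlib 3.10.9 for plots.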

Additional observations from a re-analysis of the deposited data

How the results depend on the processing

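Of 51 alternative values for the changes of the arms and of their ratio, 35 moved beyond counting error, all under another scaling, and 16 of them changed sign. The cause was not tested. Changes are on the log2 scale and given for P1 to P7, P7 to P17 and P1 to P17. For miR-9-5p (-0.20, -0.76 and -0.96 with RPM) they were 0.76, -0.68 and 0.083 with median-of-ratios factors, 0.70, -0.69 and 0.0061 when these came from miRNAs of at least 10 RPM, 0.79, -0.70 and 0.084 with TMM factors, 0.43, -1.01 and -0.58 with a total that left out the 10 miRNAs highest in each library, 0.21, -0.77 and -0.56 with a total without the sensory cluster, and -0.23, -0.85 and -1.08 with a total without the miR-9 arms. MiR-9-5p thus passed 2-fold from P7 to P17 with the first of these reduced totals and from P1 to P17 with the last. For miR-9-3p (-0.13, -0.45 and -0.58 with RPM) they were, in the same order of scalings, 0.83, -0.37 and 0.46; 0.77, -0.38 and 0.39; 0.86, -0.39 and 0.47; 0.50, -0.70 and -0.20; 0.28, -0.46 and -0.18; and -0.16, -0.54 and -0.70. Pseudocounts of 0.1 and 5 RPM left the changes of both arms within counting error, though not their distance from the median of all, as did 0.5 added to every count for the arm ratio.

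Of 54 alternative values for ranks and numbers past 2-fold, 20 were not within 1.5 times. TMM factors gave 69 miRNAs over 2-fold lower and 63 higher from P1 to P7 and 155 and 165 from P1 to P17, close to median-of-ratios factors. A pseudocount of 5 RPM gave 44 lower from P7 to P17 against 75. A criterion of 1.5-fold gave 41 higher from P1 to P7 against 20, and 147 higher and 177 lower from P7 to P17 against 91 and 75. Hairpins with an arm ratio past 2-fold numbered 58, 81 and 105 of 264 with at least 1 read of both arms in each library and 11, 27 and 44 of 106 at 10 RPM, against 26, 44 and 70 of 190, so that over the whole span the shares were 39.8%, 41.5% and 36.8%. Over 3p names alone miR-9-3p held ranks 6, 2 and 5. Adding miR-9b reads to the arm ratio was not run, since those arms were not analysed here. No paired analysis was possible because no age has a second library. Depth limits neither arm, with at least 48781 reads each.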

Other observations

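The hairpins whose arm ratio followed the course most like that of miR-9, among 105 others with both arms at a mean of at least 10 RPM, were miR-434, miR-331, miR-532, miR-152 and miR-340. MiR-434, of the imprinted Dlk1-Dio3 locus, was nearest, with a 5p to 3p ratio of 4.11 at P1, 3.97 at P7 and 3.08 at P17. In miR-532 the ratio went from 73.8 to 67.8 and 46.5. In miR-152, where the 3p arm leads, it was 0.0453, 0.0483 and 0.0324. In miR-340 it was 7.60, 8.07 and 7.85, and in miR-331, where the 3p arm leads, 0.0656, 0.0592 and 0.0545. These hairpins differ in which arm leads and by how much, and only miR-434, miR-532 and miR-331 had a lower ratio at each later age, as miR-9 did.

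The first base of the leading and lesser arms was counted over 150 hairpins with both arms past 1 RPM and a RefSeq sequence for each. At P1 the leading arm began with U in 52.0% and with A in 23.3% of them, and the lesser arm with U in 22.0% and with A in 31.3%. At P17 the leading arm began with U in 51.3% and the lesser arm with A in 32.7%. Among lesser arms C was as frequent as A at P1 (31.3% each) and at P7 (32.0% each), and little less so at P17 (29.3%). The leading arm of miR-9, with U, thus carries the most frequent first base of leading arms at P1 and P17. Its lesser arm, with A, carries a base that led among lesser arms only at P17, by a small margin.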
